A study of Homo sapiens with 4 samples.

Results

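Mitochondrial ribosomal protein genes were taken as the protein-coding genes in the junction tables of the K562 and HepG2 cell lines whose symbol starts with MRPL (large subunit) or MRPS (small subunit). This rule found 78 genes among 35316 gene identifiers, 49 of them for the large and 29 for the small subunit, and these genes hold 669 of the 350863 exon junctions in the tables. A further 15 genes with such symbols are pseudogenes, antisense or divergent transcripts and were not members. Symbols and structure differ in 3 cases: MRPS18A and MRPS30 encode proteins that structures place in the large subunit, and MRPS36 encodes a subunit of the 2-oxoglutarate dehydrogenase complex.

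Mitochondria have their own ribosome, which translates the few mRNAs of the mitochondrial genome, all for membrane proteins of the respiratory chain and ATP synthase. Its proteins are encoded in the nucleus, made on cytosolic ribosomes, imported and assembled with mitochondrially encoded rRNA. Some have counterparts in bacterial ribosomes and others exist only in mitochondria, and the proteins are needed in fixed proportions in the assembled particle.

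The study profiled ribosomes in K562 cells, a chronic myeloid leukaemia line with erythroid features, and in HepG2 cells, a liver tumour line with hepatocyte features, with 2 samples per line and no treatment named in the labels. Cells were lysed with cycloheximide, which holds elongating ribosomes in place, and protected RNA fragments of about 29 nucleotides were sequenced after rRNA depletion, per the labels' protocols. A read across an exon junction is a footprint of cytosolic ribosomes on a spliced mRNA, or another protected fragment of it, and reads outside the coding sequence are counted too. Both samples of a line are summed in 1 deposited table, so no test across samples was possible. Each interval of a ratio or share is an exact 95% interval that covers counting error only. Intervals of medians are over genes. Each line is also a single cell line, so a difference is one between these tables. Footprint counts alone cannot tell more mRNA from more ribosomes on each mRNA.

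The tables held 7487508 uniquely mapped junction reads in K562 and 9927809 in HepG2, of 10118105 and 12001095 mapped junction reads in all. The 6 erythroid markers together had 7451 K562 reads and 1 HepG2 read, and the 6 hepatocyte markers had 211 in K562 and 757354 in HepG2, so each line had the markers of its label. Ratios are K562 over HepG2 after trimmed mean of M-values (TMM) scaling, and a gene was called where the whole interval of its ratio lay beyond 2-fold in one direction.

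The junctions of the 5 members whose difference between the lines held under every alternative that gave a value are shown as 30 bases of spliced mRNA, 15 of each exon, with the downstream exon in capitals. They come from GENCODE 29 transcripts and the coordinates are those of the intron in GRCh38. For each gene it is the junction with the most reads.
MRPL24 junction 4, chr1:156737777-156738030, minus strand: ggatcctatggacagGAAACCCACTGAGAT
MRPL20 junction 2, chr1:1405887-1406908, minus strand: aagaacatgaggaccCTCTGGATTAATCGA
MRPS21 junction 2, chr1:150294450-150308047, plus strand: caggaccctaaacagAATCCTCACTATGGA
MRPS26 junction 2, chr20:3046520-3046613, plus strand: gctgcacgagctgcgGATAGCGAGGCTGCG
MRPL50 junction 1, chr9:101390851-101398500, minus strand: ttggtctcgattcagAAAAGAGAAAGAGCC

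With TMM scaling, few mitoribosomal genes differed beyond 2-fold between the lines. Of 78 members, 75 had 20 or more uniquely mapped reads at junctions of a single gene, 46 of the large and all 29 of the small subunit. Beyond 2-fold, 4 members were higher in K562 and 2 were higher in HepG2, which is 5.33% and 2.67% of the 75, against 16.8% and 21.9% of the 10956 genes tested. The other 69 passed in neither direction, and 38.7% of all genes passed in one or the other. Among genes with 100 or more reads, 5 of 69 members were called higher in K562 and 2 higher in HepG2, while 15.2% and 21% of the 8552 genes were. The added member was MRPL16, singled out after its values were seen, with 587 K562 reads and 253 HepG2 reads. Its ratio in the main comparison was at the edge of the rule (2.31, 1.99 to 2.69). MRPL16 was also called under total-read scaling, with its most-read junction left out (log2 ratio 2.27), and with coding junctions only. The same held with coding junctions 60 or more bases after the start codon and with shared junctions counted. The remaining alternatives did not call it. The log2 ratios of the members had an interquartile range of 1.02, against 2.02 for all genes, and 39 members (52%) lay within 1.5-fold, against 32.7% of all genes.

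Large and small subunit genes covered nearly the same range. The median log2 ratio was -0.01 for the 46 large subunit genes (95% order-statistic interval over genes -0.22 to 0.51) and 0.29 for the 29 small subunit genes (-0.07 to 0.71), against -0.01 for all genes. The intervals overlap, but they describe the spread over genes and not over samples. The difference between the subunits was not tested. With MRPS18A and MRPS30 counted in the large subunit and MRPS36 left out, the medians were 0.00 and 0.26. In the large subunit, genes with a bacterial counterpart had a median of 0.41 (29 genes, -0.17 to 0.81) and those without one had -0.25 (17 genes, -0.69 to 0.17). In the small subunit the medians were 0.40 (16 genes) with and 0.29 (13 genes) without a counterpart. The intervals over genes overlap in both subunits, and the differences by counterpart were not tested either. These medians depend on scaling. Dividing by total reads, in place of TMM, moved the median of all genes to 0.41. The large subunit moved to 0.41 and the small subunit to 0.71. That change adds the same amount to every log2 ratio, so it cannot alter the gap between the small subunit and all genes. With shared junctions counted for each gene, the medians were -0.02 for large, 0.10 for small and 0.00 for all genes. With coding junctions 60 or more bases after the start codon, they were 0.13, 0.18 and -0.04. Under total-read scaling 18 members (24%) were called higher in K562 and 2 (2.67%) higher in HepG2, against 24.2% and 17.6% of all genes. The members' share called higher in K562 was thus near that of all genes under this scaling.

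**Figure D1:**
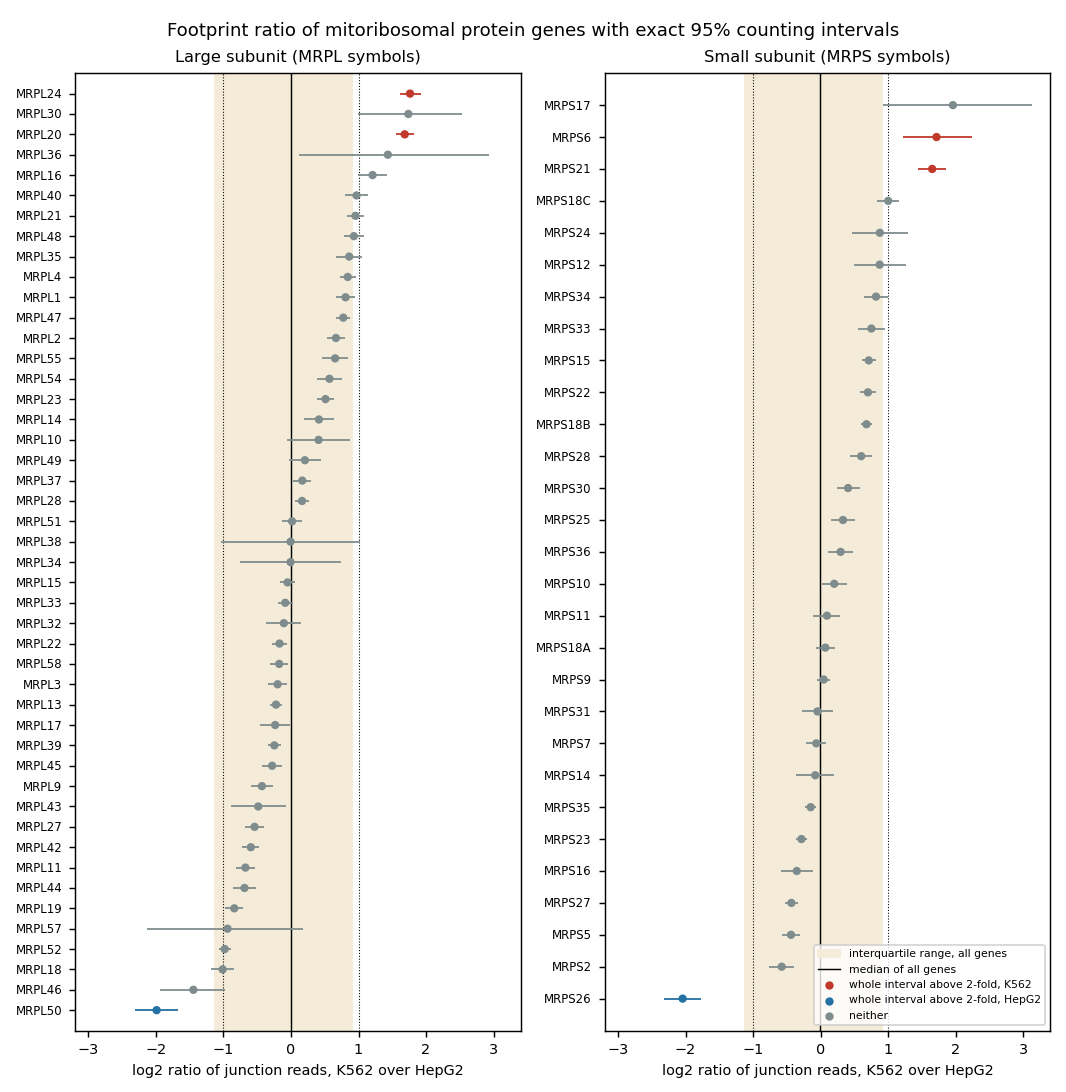
Log2 ratio of junction reads, K562 over HepG2, for the 75 members with 20 or more reads, large subunit on the left and small subunit on the right, with bars for the exact 95% counting interval. Dotted lines mark 2-fold and the shaded band is the interquartile range of all 10956 genes. MRPL24, MRPL20, MRPS21 and MRPS6 lie beyond 2-fold towards K562, and MRPS26 and MRPL50 towards HepG2.

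MRPL24 and MRPL20, both counterparts of bacterial large subunit proteins, were the members called higher in K562 in that subunit. MRPL24 had 1489 K562 reads and 437 HepG2 reads, a ratio of 3.39 (3.05 to 3.78). Its junctions differ in how far they move. The 4 coding junctions had 111, 136, 605 and 77 reads in K562, in order from the start codon, and 52, 65, 240 and 19 in HepG2. The junctions in the 5′ untranslated region (5′UTR) had 560 K562 reads and 61 HepG2 reads, so 37.6% of MRPL24 reads in K562 (35.1% to 40.1%) and 14.0% in HepG2 (10.8% to 17.6%) lay there. MRPL20 had 1888 K562 reads and 585 HepG2 reads, a ratio of 3.21 (2.93 to 3.53). Its coding junctions all had more reads in K562, with 109, 1608 and 110 in K562 and 34, 482 and 56 in HepG2.

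MRPS21, the counterpart of a bacterial small subunit protein, had 788 K562 reads and 250 HepG2 reads, a ratio of 3.14 (2.72 to 3.63). Its single coding junction had 696 K562 reads and 231 HepG2 reads, and its 5′UTR junction had 92 in K562 and 19 in HepG2, so both lie on the K562 side. These 3 genes are on chromosome 1, whose 1126 genes tested had a median log2 ratio of 0.45, and all 3 lie above it.

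MRPS6, the counterpart of a bacterial small subunit protein, was called higher in K562 with 145 reads against 44 in HepG2, a ratio of 3.28 (2.33 to 4.71). In unique reads, its coding junctions did not share this direction. The reads behind the ratio lie at 3 junctions that are in no annotated coding sequence, with 25, 62 and 32 K562 reads, against 0, 5 and 4 HepG2 reads. The coding junction that belongs to MRPS6 alone had 26 K562 reads and 35 HepG2 reads. The first coding junction, shared with another annotated gene, had 22 unique reads in each line, but only 30.1% of its mapped reads were unique. With all mapped reads it had 93 in K562 and 53 in HepG2, so its direction depends on the reads used. With coding junctions only, the log2 ratio was -0.35, and the call was lost. The call of MRPS6 therefore rests on its noncoding junctions.

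MRPS26 and MRPL50, proteins with no bacterial counterpart, were higher in HepG2. MRPS26 had 140 K562 reads and 575 HepG2 reads, a ratio of 0.242 (0.200 to 0.292). All 3 of its coding junctions went the same way, with 6, 68 and 66 K562 reads, against 17, 282 and 276 HepG2 reads. MRPS26 is the 1 member tested on chromosome 20, where the median log2 ratio of 301 genes was -1.31. Its own log2 ratio of -2.04 lay 0.73 below that median. The part of the chromosome in this ratio, or in those on chromosome 1, was not tested. MRPL50 had 106 K562 reads and 419 HepG2 reads, a ratio of 0.252 (0.202 to 0.312), all at 1 junction, so no second junction could be compared.

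**Figure D2:**
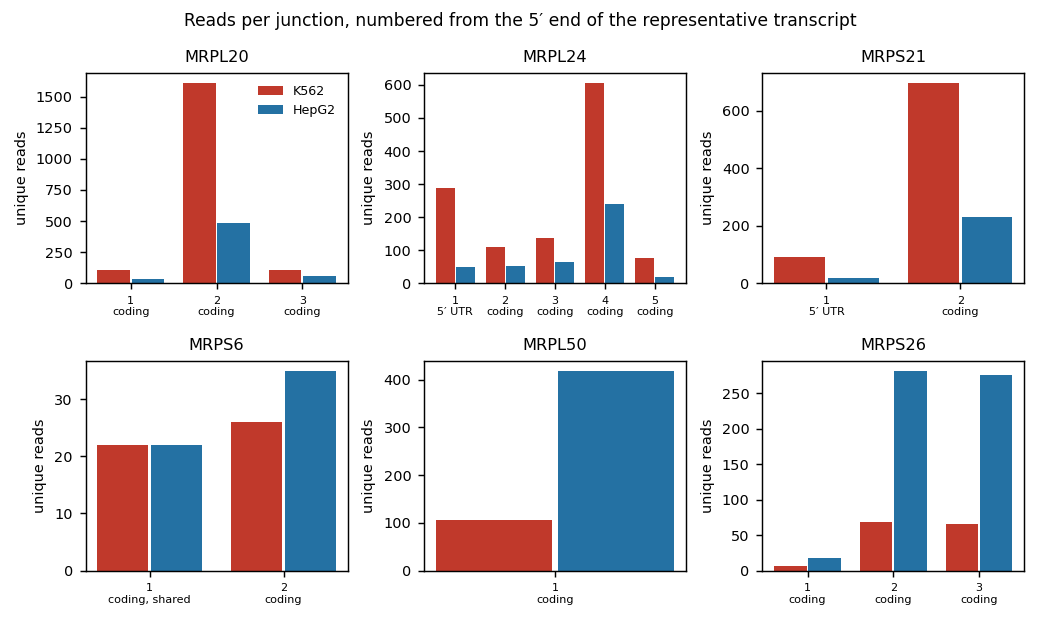
Uniquely mapped reads at each junction of the representative transcript, K562 on the left of each pair and HepG2 on the right, for the 6 members called. In MRPL20, MRPL24 and MRPS21 every junction shown is higher in K562, in MRPL50 and MRPS26 every one is higher in HepG2, and the coding junctions of MRPS6 are level or higher in HepG2. Junctions of other transcripts are not drawn.

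A pair of members with large ratios that were not called, singled out after their values were seen, also owe them to junctions outside the coding sequence. MRPL30 had 67 single-gene K562 reads and 20 HepG2 reads, of which 59 and 19 lay in the 5′UTR. Its coding junctions are shared with other annotated genes, and with these counted it had 978 K562 reads and 830 HepG2 reads, a ratio of 1.18 (1.08 to 1.30). MRPS17 had 39 single-gene K562 reads and 10 HepG2 reads, all in the 5′UTR, while its shared coding junction had 31 in K562 and 64 in HepG2. With that junction counted, the ratio of MRPS17 was 0.948 (0.674 to 1.33).

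Of the 8 members with the most reads, 4 per subunit, 7 had intervals inside 2-fold and MRPL52 had one that reached across it. In the small subunit, MRPS18B had 3045 K562 reads and 1896 HepG2 reads (ratio 1.60, 1.51 to 1.69). MRPS23, found only in mitochondrial ribosomes, had 2247 in K562 and 2727 in HepG2 (0.820, 0.775 to 0.868). MRPS35 had 2147 in K562 and 2370 in HepG2 (0.902, 0.850 to 0.956). For MRPS9, whose bacterial counterpart contacts the transfer RNA in the P site, the interval included equality, with 1806 K562 reads and 1745 HepG2 reads (1.03, 0.964 to 1.10). In the large subunit, MRPL13 had 2238 K562 reads and 2598 HepG2 reads (0.857, 0.810 to 0.908). MRPL28 had 1833 in K562 and 1629 in HepG2 (1.12, 1.05 to 1.20), and MRPL39 had 1574 in K562 and 1859 in HepG2 (0.843, 0.788 to 0.902). Each of these 7 intervals ends inside 2-fold.

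MRPL52, the remaining one and a large subunit protein with no bacterial counterpart, had 1596 K562 reads and 3137 HepG2 reads, a ratio of 0.506 (0.476 to 0.538). Its junctions ranged from no difference to a large one. The first coding junction, 28 bases into the coding sequence, had 496 K562 reads and 493 HepG2 reads. The next 3 had 218, 132 and 379 K562 reads, against 469, 632 and 1104 HepG2 reads, which are log2 ratios of -1.11, -2.27 and -1.55. The ratio of MRPL52 over the whole gene thus lies between those of its parts. With coding junctions 60 or more bases after the start codon only, its log2 ratio was -1.54, and it was called higher in HepG2.

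The 3 human relatives of a single bacterial small subunit protein, MRPS18A, MRPS18B and MRPS18C, had different ratios. MRPS18A, placed in the large subunit, had 855 K562 reads and 812 HepG2 reads (ratio 1.05, 0.951 to 1.16). MRPS18B, at a site of its own in the small subunit, had the ratio of 1.60 given above. MRPS18C, at the bacterial position, had 939 K562 reads and 468 HepG2 reads (1.997, 1.79 to 2.24). The 3 intervals do not overlap, and none passed the 2-fold rule. With all mapped reads the order of MRPS18C (ratio 1.39) and MRPS18B (ratio 1.51) turned and their intervals overlapped. MRPS30 had 666 K562 reads and 501 HepG2 reads (1.32, 1.18 to 1.49), and MRPS36 had 542 in K562 and 440 in HepG2 (1.23, 1.08 to 1.39).

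Levels were compared between genes as the mean number of unique reads per coding junction of the representative transcript, the one with the most reads, per 1000000 effective reads after TMM scaling. Every junction offers about the same number of footprint positions, so this level is a density and does not grow with gene length. The median level was 21.3 in K562 and 23.1 in HepG2 for large subunit genes, and 20.6 in K562 and 19.9 in HepG2 for small subunit genes. Large over small was therefore 1.04 in K562 and 1.16 in HepG2, and the order in K562 depended on the setting, as given below. All protein-coding genes tested had medians of 2.40 in K562 and 2.98 in HepG2. Members were also closer to each other than genes at large, with an upper quartile 2.16 times the lower in K562 and 2.32 times in HepG2, against 12.3 and 10.3 for all protein-coding genes. In each line, 52 of the 75 members with a level (69.3%) lay within 2-fold of the members' median, against 29.4% in K562 and 31.8% in HepG2 of all protein-coding genes around their own median. With subunits by structure, the K562 medians were 20.8 for large and 21.1 for small. They were 19.9 and 20.4 with all junctions of the transcript, and 21.4 and 21.8 with coding junctions 60 or more bases after the start codon. With all mapped reads, large and small had 18.0 and 17.6 in K562 and 18.9 and 18.7 in HepG2.

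**Figure D3:**
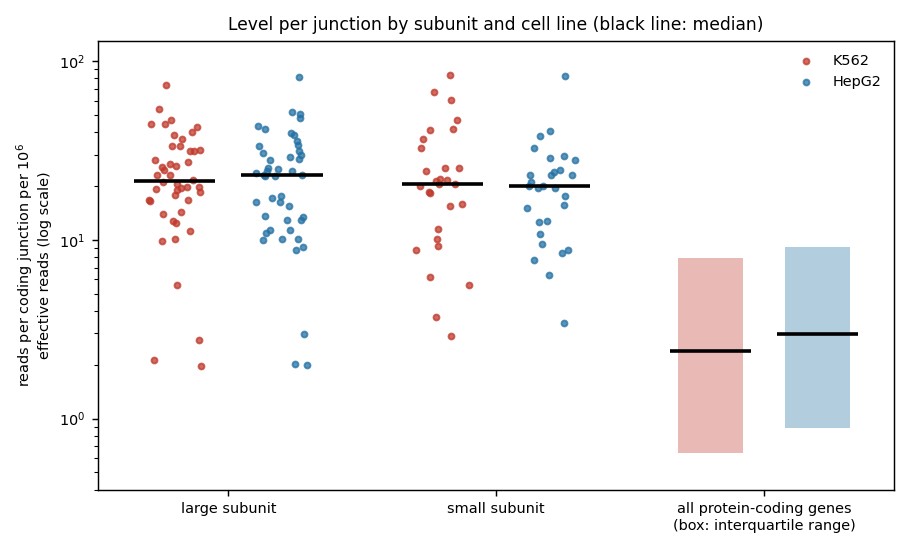
Reads per coding junction per 1000000 effective reads on a log scale, K562 left of HepG2, for large and small subunit genes (1 point per gene, black line at the median) and for all protein-coding genes (interquartile box and median). Both subunits have medians near 20 in both lines, above the boxes of all protein-coding genes.

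The highest levels fell on partly different genes in the lines. MRPS21 had the highest level in K562, at 83.5, against 27.8 in HepG2. MRPL20 had 73.0 in K562 and 23.0 in HepG2. MRPS23 was high in both, at 67.4 in K562 and 82.1 in HepG2. MRPS18B followed with 60.9 in K562 and 38.1 in HepG2, then MRPL28 with 54.0 and 48.4 and MRPL14, a protein of the subunit interface, with 47.0 in K562 and 35.5 in HepG2. Thus MRPS21 and MRPL20 stand out in K562 and MRPS23 stands out in both. In HepG2 the next after MRPS23 was MRPL52, at 36.7 in K562 and 81.3 in HepG2, and MRPL50 was also high there, at 12.7 in K562 and 50.5 in HepG2. Some of these levels rest on 1 junction. With all junctions of the transcript, MRPS21 had 47.3 in K562 and 15.1 in HepG2, under MRPL20 in both lines, and MRPL14 had 23.7 in K562 and 17.8 in HepG2. With the median over coding junctions in place of the mean, MRPL20 had 13.2 in K562 and 6.75 in HepG2, and MRPS18B had 17.0 in K562 and 18.8 in HepG2.

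At the low end, MRPL34 had 1.98 in K562 and 1.99 in HepG2, and MRPL43 had 2.14 in K562 and 2.99 in HepG2. MRPL10, a protein of the stalk base, had 2.76 in K562 and 2.02 in HepG2. These 3 large subunit genes lay near the median of all protein-coding genes, far under the median of the members. In the small subunit, MRPS6 had 2.88 in K562 and 3.43 in HepG2, MRPS17 had 3.72 in K562 and 7.71 in HepG2, and MRPS26 had 5.60 in K562 and 23.1 in HepG2. MRPS26 was therefore low in K562 and above the small subunit median in HepG2. With all mapped reads, MRPS6 had 5.70 in K562 and 4.63 in HepG2 and MRPS17 had 5.70 in K562 and 9.46 in HepG2, and MRPS26, at 4.39, was then the lowest of the small subunit in K562. With the median over coding junctions, MRPL43 had 0.24 in K562 and 0 in HepG2, and MRPS10 was the lowest of the small subunit in both lines, at 1.26 in K562 and 1.21 in HepG2. The rank correlation of levels between the lines was 0.66 over the 75 members and 0.65 over 10313 protein-coding genes, given as a description since each line shares 1 table over all genes. MRPL36, MRPL41 and MRPL57 have no coding junction with a level, as their junctions lie in the 5′UTR.

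Splice-site choice differed in a few members. At splice sites with 20 or more reads in each line, a junction was called where its share of the site's reads differed by 20 percentage points or more with intervals that do not overlap. This held for 11 of 246 member junctions (4.47%) in 5 of 58 genes (8.62%), against 3.85% of 24466 junctions and 8.7% of 5184 genes overall. The members' shares are thus near the background, and the genes are given as descriptions. Of the 11 junctions, 4 belong to large and 7 to small subunit genes.

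The alternative junctions of MRPL24, MRPS18C and MRPL2 are shown because each pair shares one exon and differs in the other.
MRPL24 first donor, chr1:156738765-156741052, minus strand: ccgcggaaagtggagAGCTGACAAGGAAGG
MRPL24 second donor, chr1:156738765-156741011, minus strand: ccgtccgagaggcagAGCTGACAAGGAAGG
MRPS18C exon left out, chr4:83456959-83459739, plus strand: agcaatgaggacctgCTTTTGTCCCAGTTT
MRPS18C exon kept, chr4:83458430-83459739, plus strand: tataagaatgtacagCTTTTGTCCCAGTTT
MRPL2 long junction, chr6:43054487-43058064, minus strand: gccgagaccacacagGTGCTGGAAACGTGC
MRPL2 short junction, chr6:43056446-43058064, minus strand: gccgagaccacacagGCCGAATCCGGGTGC

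The 2 donors of MRPL24 lie 41 bases apart in the 5′UTR. The second donor took 250 of 560 K562 reads at the shared acceptor (44.6%, 40.5% to 48.9%) but 12 of 61 HepG2 reads (19.7%). The first took 288 of 560 in K562 (51.4%) and 48 of 61 in HepG2 (78.7%). Both donors had more reads in K562, and the second made up a larger part there.

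In MRPS18C, the junction that leaves out an 84-base exon took 58 of 109 acceptor reads in K562 (53.2%, 43.4% to 62.8%), against 11 of 56 in HepG2 (19.6%). The junction that keeps it took 51 of 109 in K562 (46.8%) and 45 of 56 in HepG2 (80.4%). The exon's length is a multiple of 3 bases. One junction further on, chr4:83459798-83460972 held 57 of the 79 K562 reads at its acceptor (72.2%) and 84 of the 91 HepG2 reads (92.3%). These are unique reads, and only 42.9% of the mapped reads of that junction were unique over both lines. In MRPL2, a protein close to the peptidyl transferase centre, the order was the other way round. Its long junction held 20 of the 99 K562 donor reads (20.2%) and 22 of the 44 HepG2 ones (50%), and the short one took the remaining 79 in K562 and 22 in HepG2.

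MRPS33 used 2 acceptors 43 bases apart in its 5′UTR. The nearer acceptor, chr7:141010661-141014910, held 41 of the 71 K562 reads (57.7%) and 9 of the 35 HepG2 reads (25.7%). The farther one, chr7:141010618-141014910, took 30 of 71 in K562 (42.3%) and 26 of 35 in HepG2 (74.3%). At an acceptor of MRPS28, the counterpart of a bacterial small subunit protein, one donor held 37 of the 122 K562 reads (30.3%) and 6 of the 64 HepG2 reads (9.38%). The other held 81 of 122 in K562 (66.4%) and 56 of 64 in HepG2 (87.5%). Each of these sites had under 150 reads in a line except that of MRPL24, so the intervals are wide.

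With a junction that is coding in any transcript counted as coding, reads in the 5′UTR were a small part of the members' reads and a larger part in K562. They made up 2.17% of member reads in K562 (1355 of 62409, 2.06% to 2.29%) and 0.825% in HepG2 (470 of 56982, 0.752% to 0.903%). Over all single-gene junctions the shares were 6.47% in K562 and 3.30% in HepG2, so the same direction held over the whole tables. MRPL24 alone held 560 of the 1355 reads in K562, and without it the shares were 1.30% in K562 and 0.723% in HepG2. The difference of 1.35 percentage points became 0.58 without MRPL24. Large subunit genes had 2.70% in K562 and 1.02% in HepG2, and small subunit genes had 1.37% in K562 and 0.508% in HepG2. Without MRPL24 the large subunit had 1.26% in K562 (1.15% to 1.38%) and 0.859% in HepG2 (0.765% to 0.962%), still higher in K562. Within K562 the large subunit was then no longer above the small subunit. MRPS33 (30.8% in K562, 19.5% in HepG2) and MRPL55 (23.0% in K562, 18.6% in HepG2) followed MRPL24 in the number of such reads in K562. In HepG2 these 3 genes had similar numbers, 66 for MRPS33, 65 for MRPL55 and 61 for MRPL24. Where a junction untranslated in any transcript was counted as such instead, the member shares were 6.21% in K562 and 5.37% in HepG2. Without MRPL24 they were then 5.44% in K562 (5.26% to 5.63%) and 5.30% in HepG2 (5.12% to 5.49%), and the intervals overlapped.

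Within the coding sequence, junctions near the start codon had lower medians in mitoribosomal genes than in all genes. Each junction was set against the mean of the gene's coding junctions. Within 30 bases of the start, 6 members, all of the large subunit, had a median of 0.79 of that mean in K562 and 0.60 in HepG2. All genes had 1.57 and 0.85 there. Junctions 31 to 60 bases after the start had a median of 0.50 of that mean in K562 and 0.31 in HepG2 over 17 members, against 0.94 and 0.68 for all genes. At 61 to 150 bases the members' median was 0.37 in K562 and 0.41 in HepG2 (38 members), against 0.83 and 0.77. At 151 to 300 bases it was 0.89 in K562 and 0.91 in HepG2 (51 members), close to the 0.86 and 0.89 of all genes. Beyond 300 bases the members stood at 1.06 in K562 and 1.11 in HepG2 (46 members), against 1 in both lines. The low values early in the coding sequence were present in both subunits, with 0.35 in K562 and 0.38 in HepG2 for large and 0.48 in K562 and 0.44 in HepG2 for small subunit genes at 61 to 150 bases. No test was made of this difference, and the interquartile ranges of members and of all genes overlap.

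**Figure D4:**
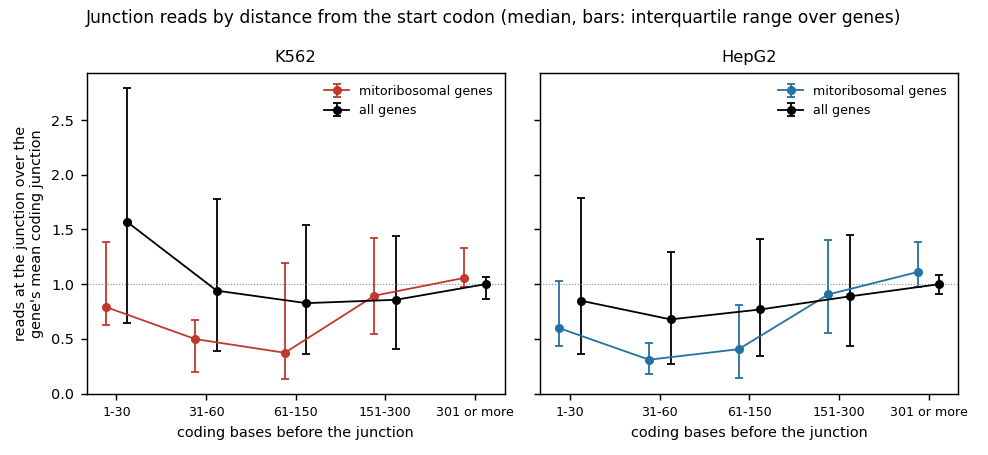
Median reads at a junction over the mean of the gene's coding junctions, by the number of coding bases before the junction, K562 on the left and HepG2 on the right, with bars for the interquartile range over genes. Members lie below all genes up to 150 bases and reach them from 151 bases on, in both lines.

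Part of the reads of some members mapped to more than one place. MRPS10 and MRPS14, counterparts of bacterial small subunit proteins, had 48.3% and 48.4% of their mapped junction reads uniquely mapped, the lowest of the members, followed by MRPL35 (52.4%) and MRPS18C (55.3%). A count was made over coding junctions of the representative transcript that belong to a single annotated gene and had 20 or more mapped reads. Those whose 30 bases also occur in a transcript of another gene had 23.6% unique reads (12 junctions in 5 genes, every one under 50%). The 280 junctions with no such copy had 92.3%, and 14 of them were under 50%. These 5 genes are MRPL3, MRPL45, MRPS10, MRPS18C and MRPS36, and each of these copies is an annotated pseudogene. Junctions that the tables assign to more than one gene, such as those of MRPL12, were left out of this count. MRPL45 junctions 1 to 3, all present in MRPL45P2, had 0 unique reads of 127, 220 and 148 mapped in both lines together. A low share was also seen without such a copy. MRPS10 junction 1 had no copy and 3.22% unique reads, MRPS14 junction 2 had none and 32.2%, and MRPL35 junction 3 had none and 41.0%. What lowers the share at these junctions was not tested. The sequences of an MRPS10 junction with a copy and of one without are shown as 1 pair whose unique shares are far apart.
MRPS10 junction 6, chr6:42208373-42208857, minus strand, 2.02% unique, copy in AL138752.1: atggaagtaacaaagACACAATTAGAACAG
MRPS10 junction 4, chr6:42210597-42211780, minus strand, 95.1% unique, no copy: tatctctattaaagtACATGAACCTCCAAG
MRPS10 junction 6 had 5 unique of 419 mapped reads in K562 and 7 of 174 in HepG2, so the ratio of MRPS10, 1.15 (1.01 to 1.31), rests on its other junctions. With all mapped reads in place of unique ones, 5 members were called higher in K562 and 3 higher in HepG2, against 17.2% and 21.9% of all genes. The added ones were MRPL35 for K562 and MRPL46 for HepG2.

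**Figure D5:**
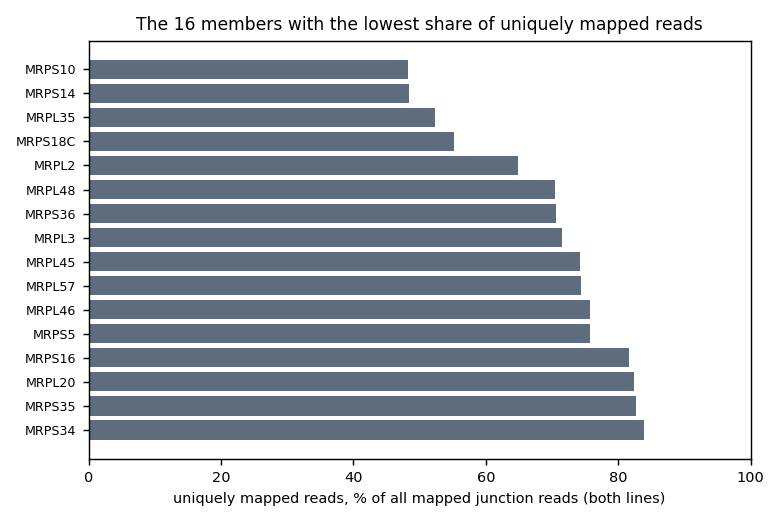
Uniquely mapped reads as a percentage of all mapped junction reads, both lines together, for the 16 members with the lowest share. MRPS10 and MRPS14 lie under 50%, and the others range up to 83.9%.

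Members with fewer than 20 single-gene reads were not absent from the tables. MRPL12, which also binds the mitochondrial RNA polymerase, shares all its junctions with an overlapping annotated gene. These had 662 K562 reads and 943 HepG2 reads, a ratio of 0.703 (0.636 to 0.778), and a level of 19.9 in K562 and 28.4 in HepG2. Its 4 junctions had 19, 253, 44 and 346 K562 reads, against 25, 368, 191 and 359 HepG2 reads, so the third stands apart from the others. MRPL53 shares its main junctions with CCDC142, with 524 K562 reads and 384 HepG2 reads (ratio with them counted 1.36, 1.19 to 1.56). MRPL41 had 2 K562 reads and 1 HepG2 read, at its only junction with reads, in the 5′UTR, so its coding sequence was not measured here.

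Mitoribosomal proteins under other symbols, and factors that assemble or serve the mitoribosome, were counted beside the members. Of 5 proteins with other symbols, DAP3, a GTP-binding protein of the small subunit, was called higher in K562 with 3785 reads against 1288 in HepG2 (ratio 2.93, 2.75 to 3.12). PTCD3, also of the small subunit, had 3370 K562 reads and 5834 HepG2 reads (0.575, 0.551 to 0.600) and was not called. Among 28 assembly factors, 3 were called for K562 and 2 for HepG2, which is 10.7% and 7.14% of the list, against 16.8% and 21.9% of all genes. The list's median on the log2 scale was 0.22 against -0.01 for all genes.

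The assembly factors higher in K562 were MRM2, which methylates the large rRNA (165 reads in K562, 37 in HepG2), RPUSD4, a pseudouridine synthase (331 in K562, 134 in HepG2), and NGRN, a large subunit rRNA factor (51 in K562, 8 in HepG2). Those higher in HepG2 were TFB1M, which dimethylates the small subunit rRNA (385 in K562, 1606 in HepG2), and OXA1L, the inner-membrane insertase for newly made proteins (743 in K562, 1823 in HepG2). Their ratios ran from 0.239 (0.213 to 0.267) for TFB1M to 6.35 (2.99 to 15.5) for NGRN. Of 15 translation factors, MRRF, the recycling factor (305 in K562, 97 in HepG2, ratio 3.13), and MTRFR, a rescue factor (68 in K562, 15 in HepG2, ratio 4.51), were higher in K562. TACO1, an activator of the translation of a cytochrome oxidase subunit, was higher in HepG2 (327 in K562, 814 in HepG2, ratio 0.400), and the median log2 ratio of the 15 was 0.07. These calls are 13.3% and 6.67% of the list, also under the 16.8% and 21.9% of all genes.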

How the data were processed

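Ribosome footprints were measured in 2 samples each of K562 and HepG2. The authors deposited, per line, 1 table of whole-number read counts (uniquely mapped, and all mapped, where a multi-mapped read may recur) per annotated exon junction, in which both samples are summed. Reads were processed with cutadapt, Bowtie2 and STAR 2.6.0 on GRCh38, per the submitters' processing notes. Neither the annotation release nor the counting program is given in the sources used here. Of 350863 junctions, 350016 (99.8%) matched introns of GENCODE release 29, which gave symbols, regions and sequences.

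Unique counts at junctions of 1 gene were summed per gene, genes with 20 or more reads were kept, and TMM factors came from edgeR 4.0.16 (R 4.3.3). Since 1 table per line leaves no spread between samples, no model was fitted: ratios have exact conditional binomial (Clopper-Pearson) 95% intervals from scipy 1.17.1 (Python 3.11.15, pandas 2.3.3), and the call rule is an interval wholly beyond 2-fold. Shares have exact binomial intervals. Intervals of ratios and shares cover counting error only, since reads lacking molecular identifiers may be copies of 1 molecule. Medians have order-statistic intervals over genes. The 6033 junctions of more than 1 gene were left out of gene sums and kept in levels. A junction that is coding in any transcript was coding. The interval routine was tested on simulated data.

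Alternatives covered scaling (total reads, DESeq2 1.42.0 size factors), read minimums, mapped reads, junction regions and shared junctions. Genes named are, per subunit, the 4 with the most reads and the 3 highest and 3 lowest in level in K562, members that were called, had under 50% unique reads, under 20 reads or a junction share difference, the MRPS18 genes, MRPS30, MRPS36 and called genes of the other lists. A few further members (among them MRPL3, MRPL16, MRPL30, MRPL35, MRPL36, MRPL45, MRPL46, MRPL55 and MRPL57, and PTCD3 of the other lists) were named after their values were seen. Members and lists were chosen with earlier results of these data known.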

Additional observations from a re-analysis of the deposited data

Results flagged for a closer look

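Some reads lie at junctions of genes that are not members or that no gene sum used. MRPL20-AS1, a transcript that overlaps MRPL20, had 34 unique reads in K562 and 32 in HepG2. MRPS30-DT, divergent from MRPS30, had 48 in K562 and 2 in HepG2. MRPS31P4, a transcribed pseudogene of MRPS31, had 43 in K562 and 17 in HepG2. The junctions that MRPL12 shares with another gene held 662 K562 reads and 943 HepG2 reads, and those that MRPL53 shares with CCDC142 had 524 in K562 and 384 in HepG2. All but the 2 reads of MRPS30-DT exceed the 3 counts that a count of 0 allows. The tables alone do not say which of the overlapping or similar genes these footprints came from.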

How the results depend on the processing

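Scaling by total reads raised the members called higher in K562 to 18 from 4, which is 24% of those tested, against 24.2% of all genes. It raised the small subunit median log2 ratio to 0.71, with the median of all genes at 0.41. Leaving out each gene's most-read junction lowered those called higher in HepG2 to 1 from 2, as MRPL50 has no other junction. The count of junctions with a share difference, 11, was 10 with all mapped reads and 7 with 50 reads at a site. It was 18 with a difference of 10 points and 4 with 99% intervals. The 5′UTR difference of 1.35 points was 0.84 where a junction untranslated in any transcript counts as such and 0.58 without MRPL24, an alternative chosen after seeing the data. With both changes together it was 0.14 points. For MRPS6, the log2 ratio was -0.35 with coding junctions only and -0.32 with those 60 or more bases after the start codon. MRPL20, MRPL24, MRPS21 and MRPS26 were called under all 10 alternatives, MRPL50 under the 9 that gave it a value and MRPS6 under 6. Single-gene ratios counted as the same in 590 cases. For a called gene this means that the call was kept, whatever the size of the change. For an uncalled gene it means no call and a value inside its main interval. They moved in 103, gained a call in 25, lost one in 2 and reversed in 2. Much of the 590 comes from settings that keep the same gene counts and nearly the same scaling. These are 99% intervals, DESeq2 size factors and a minimum of 1 read, with 75 each, and a minimum of 100 reads, with 68. Total-read scaling left 13 the same and moved 48. Leaving out the most-read junction left 29 the same and moved 31.

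No paired analysis was possible because both samples of a line are summed in 1 table, and leaving out a replicate was not run for the same reason. Differences between samples of a line, and reads inside exons, were not measured here.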
